A study of Mus musculus with 69 samples.

Results

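Hippocampi of male mice lacking Cdh13 were compared at postnatal day 22 (P22) between animals that had been separated from their mothers as pups and animals that had not. All 19 animals were Cdh13 knockouts, 10 separated and 9 controls, chosen by these labels from 69 animals of a design that also holds wildtype mice and mice of P66. Separated litters spent 3 h a day apart at a random time of the light phase from P1 to P14. Control litters were handled and otherwise left in place. The animals of both groups were killed at weaning, and the hippocampus was cut from frozen slices of about a millimetre, so each library is bulk tissue of 1 animal. Breeding took place in 2 rounds, called cohorts: 4 of the 9 controls and 2 of the 10 separated animals came from cohort 1 and the rest from cohort 2. Litters are not named in the labels and each animal counts as 1 observation; any likeness between littermates would make the true p-values larger than those given. An animal is named here by cohort and number, so C2-12 is animal 12 of cohort 2; control C2-77 and separated C2-77 are different animals. The comparison asks whether early separation alters the hippocampal expression of the genes held here at weaning, in the absence of Cdh13.

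Maternal separation is a standard rodent model of early life stress. Cdh13 encodes T-cadherin, an unusual cadherin that is held in the membrane by a lipid anchor, acts in axon growth and inhibitory synapses, and binds adiponectin. The hippocampus lies beside the lateral ventricle, whose choroid plexus secretes cerebrospinal fluid and whose wall is lined by ciliated ependymal cells. A dissected hippocampus can carry some of either tissue, and its neurons, glia and vessels all contribute to one bulk profile. In such samples fewer cells of a type and less RNA per cell cannot be told apart.

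The table holds raw counts of reads for 9930 protein-coding genes of chromosomes 1 to 7 and the start of chromosome 8. Cdh13 itself was not analysed here, and its level could not serve as a check of the genotypes. Library totals over these genes lay between 11.81 and 14.8 M (M, mega; median 13.75 M), and 511 genes had no count in any of the 19. Markers of hippocampal neurons were present in all 19 libraries. Prox1, the transcription factor of dentate granule cells, had 236 to 505 CPM (counts per M counts of the library, on normalised library sizes), and Slc17a7, the vesicular glutamate transporter of pyramidal and granule cells, had 2760 to 4960 CPM.

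No gene passed the test of separation in the knockout at P22. By edgeR's quasi-likelihood test 0 of 7036 tested genes (0%) had a Benjamini-Hochberg adjusted p under 0.05, and the smallest adjusted p was 0.747. An unadjusted p under 0.05 was reached by 334 genes (4.75%), against 352 expected with no effect at all. Of these, 147 (2.09% of all genes) had positive and 187 (2.66%) negative log2 changes, where a positive change means more in separated animals. DESeq2 and limma-voom also called 0 genes, with 335 and 340 at an unadjusted p under 0.05. The median size of a change was 0.0479 on the log2 scale, and 12 genes had a change over 1 in size. For no gene did the levels of the 10 separated animals lie wholly outside those of the 9 controls. All changes below are therefore values of uncalled genes, described by size, error and the number of animals on each side.

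Among the 10 genes of lower level with the smallest p, Fzd4 came first. It encodes a Wnt and Norrin receptor that is needed for the vessels of brain and retina. Its levels in the 9 controls ran from 34 through a median of 50 to 58.2 CPM, and in the 10 separated animals from 33.4 through 37.7 to 42.6 CPM. The separated animals formed a tight band that lay below the control median in 10 of 10, but controls C2-43 at 34 and C1-4 at 35.2 CPM lay within that band. The log2 change of the 10 against the 9 animals was -0.33 ± 0.0813 (SE from the fit of all 38 P22 libraries, edgeR, adjusted p = 0.747). Without control C2-43, the lowest of the controls, the same test gave -0.40 with an adjusted p = 0.039. This was the only call in 19 fits that each left out a single library, and the p is not adjusted for their number.

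Inpp5d encodes SHIP1, a lipid phosphatase of microglia and of blood cells. Controls ran from 28.1 through 32.2 to 35.5 CPM and separated animals from 23.9 through 26.6 to 30.7 CPM. All 10 separated animals lay below the control median and 6 of them below the lowest control. This amounted to a log2 change of -0.20 ± 0.0589 (SE) with an adjusted p = 0.827 by edgeR. Steap4, a metalloreductase induced in inflammation, was scarce, with 0.844 to 3.84 CPM in controls and 0.453 to 2.33 CPM in separated animals. Its log2 change of -1.25 ± 0.33 (SE) was the largest among the 20 genes named by smallest p. Angptl2, a secreted angiopoietin-like protein, had 16.8 ± 4.84 CPM (SD, n = 9) in controls and 11.2 ± 3.42 CPM (SD, n = 10) in separated animals. Ucp2, an uncoupling protein of the mitochondrial inner membrane, had 66.7 ± 13.8 and 52.2 ± 9.66 CPM in the same order. Tuft1 had 9.29 ± 1.14 and 7.43 ± 1.22 CPM, and 6 of its 10 separated values lay below every control. Dkkl1 had 2.33 to 12.1 CPM in controls against 1.63 to 4.62 CPM in separated animals, and its highest control, C2-43, stood far from the next at 5.55 CPM. The remaining genes of lower level were Prdm16, a transcription factor of stem cells and brown fat, at a log2 change of -0.24, Ephx1, the microsomal epoxide hydrolase, at -0.27, and Cnn3, an actin-binding calponin, at -0.13.

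Of the 10 genes of higher level with the smallest p, Epb41, the membrane skeleton protein 4.1R, ran from 62.7 through 90.5 to 108 CPM in controls and from 93.9 through 115 to 134 CPM in separated animals. All 10 separated animals lay above the control median, 6 of them above the highest control, and the lowest control C1-4 stood apart from the next at 85.3 CPM. The log2 change was 0.29 ± 0.0753 (SE; edgeR, adjusted p = 0.747). Vash2, a tubulin carboxypeptidase of the vasohibin pair, had 11.3 ± 1.31 CPM (SD, n = 9) in controls and 13.6 ± 1.35 CPM (SD, n = 10) in separated animals. Sgpp2, a phosphatase of sphingosine 1-phosphate, had 23.5 ± 3.06 and 31.7 ± 6.57 CPM, with 7 separated animals above the highest control. Dok5, an adaptor of receptor tyrosine kinases, had 33.4 ± 4.04 and 41.3 ± 7.31 CPM.

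Among these genes those with larger changes also had the wider spread, a pairing that choosing genes by smallest p favours. Vwc2l, a secreted protein with von Willebrand factor C domains, ran from 9.28 through 16.3 to 32.9 CPM in controls and from 10.4 through 38.8 to 56.2 CPM in separated animals. The ranges overlapped over most of the control values, and 6 separated animals lay above all controls. In log2 Vwc2l differed by 0.89 ± 0.257 (SE). Mab21l1, a developmental gene of eye and brain, had 1.3 ± 0.847 CPM (SD, n = 9) and 3.33 ± 1.86 CPM (SD, n = 10), a log2 change of 1.21 ± 0.345 (SE). Rassf6 had a change of 0.75 and Zfp951 of 0.46. Nkx2-2, a homeobox factor of the oligodendrocyte lineage, differed by 0.31 in log2 and Ankrd45 by 0.18, each with 10 of 10 separated animals above the control median.

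**Figure D1:**
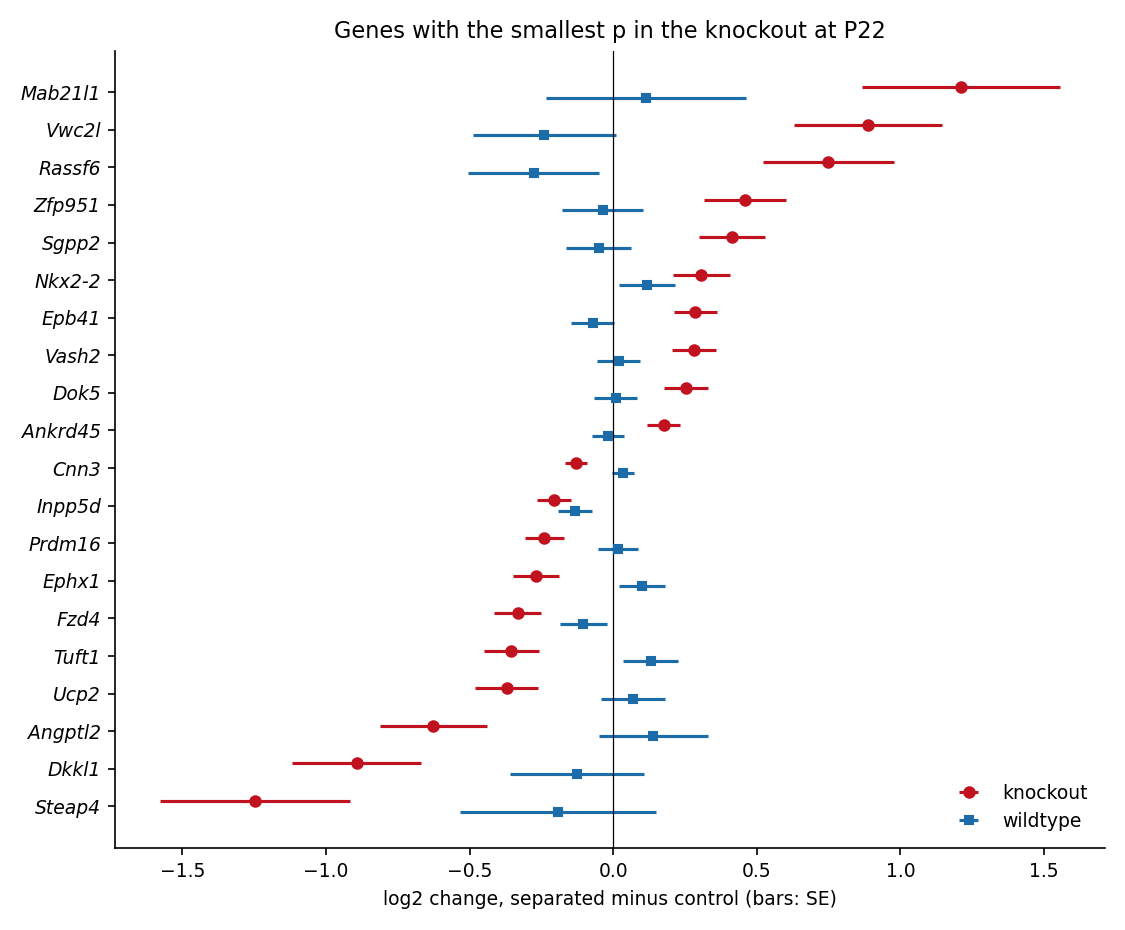
Log2 change (separated minus control, with SE bars) of the 20 genes with the smallest p in the knockout at P22, in knockout (red circles) and wildtype (blue squares) animals. Knockout changes run from -1.25 for Steap4 to 1.21 for Mab21l1; the genes were chosen by the knockout values, so their distance from 0 there is no finding.

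In wildtype animals of the same age (11 separated, 8 controls), the same 20 genes had smaller changes. Fzd4 was at -0.10 ± 0.0812 (SE) and Inpp5d at -0.13 ± 0.0588, on the same side of 0 as in the knockout. Epb41 was at -0.07, Vwc2l at -0.24 and Tuft1 at 0.13, on the other side. Since the genes were picked in the knockout, smaller wildtype values follow in part from that choice and no count is read from them.

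**Figure D2:**
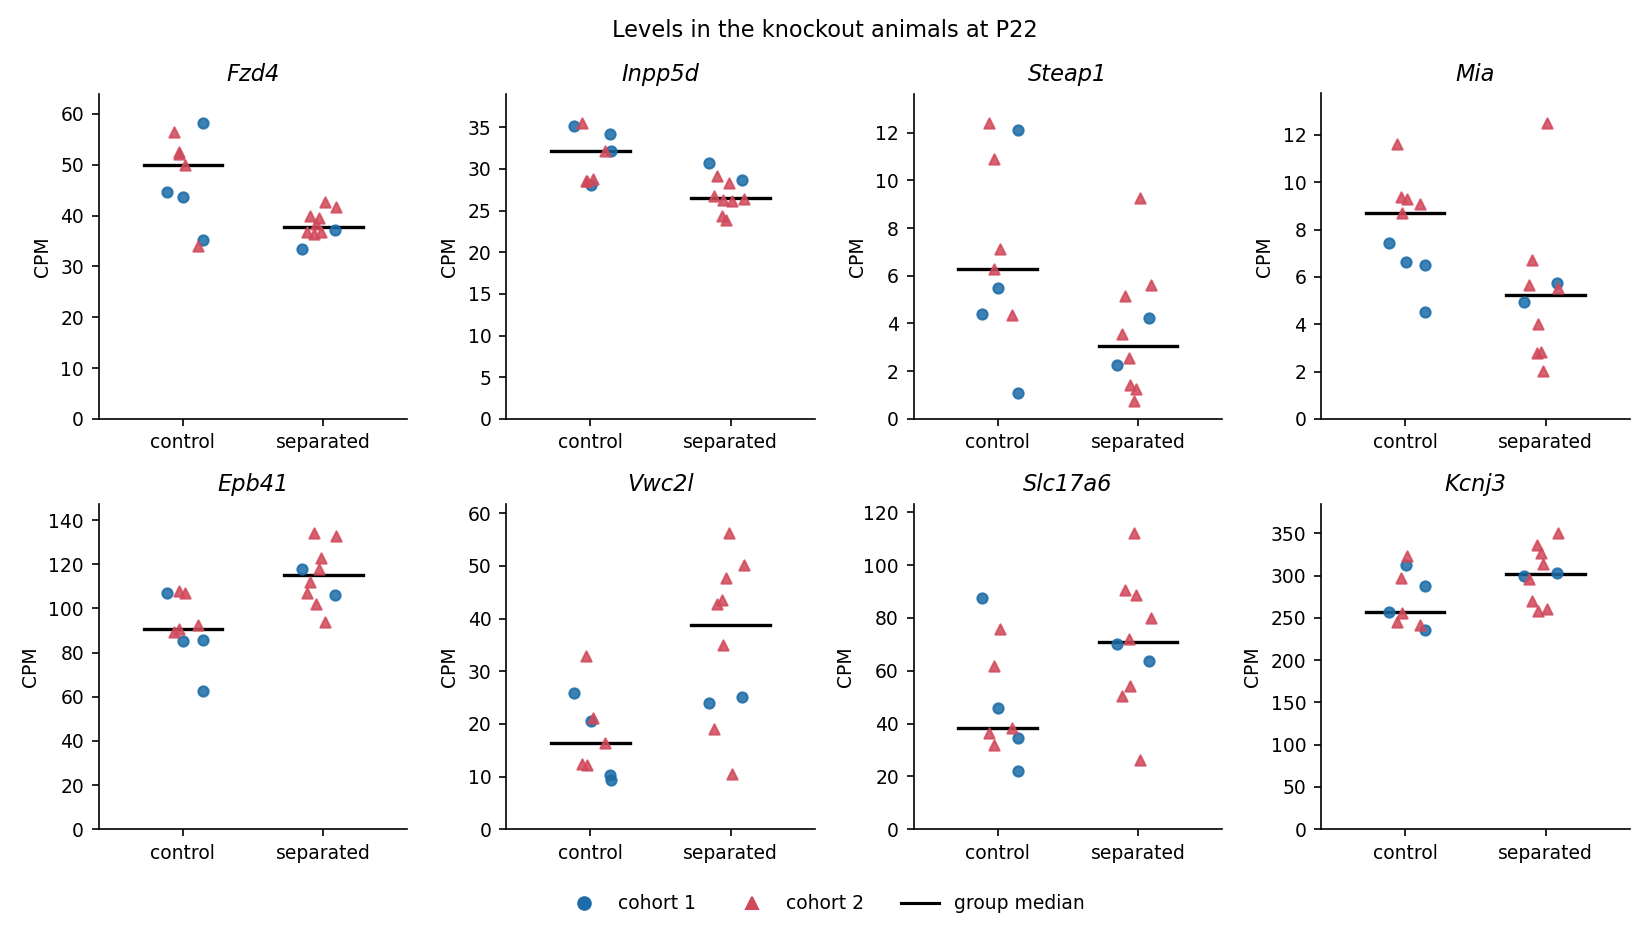
CPM of 8 genes in the 9 control and 10 separated knockout animals at P22, each point 1 animal, marked by cohort, with the group median as a bar. Fzd4 values of separated animals sit between 33.4 and 42.6, within the control range of 34 to 58.2 but for 1 animal, and all panels show overlapping groups.

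Genes of the choroid plexus epithelium had the most negative changes of the 30 gene lists described. Of 26 listed markers 15 were held and all 15 were tested. All 15 had negative changes, where 45.3% of all tested genes did, and 12 had an unadjusted p under 0.05, where 2.66% of all genes had one with a negative change. None was called (edgeR, adjusted p = 0.978 for each). The median log2 change was -0.906, with a range from -1.05 to -0.09, against 0.00726 over all genes. These members share their source and vary together between animals, so they are not 15 separate observations.

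The members span the functions of this epithelium. Steap1, a membrane protein related to Steap4, ran from 1.07 through 6.3 to 12.4 CPM in controls and from 0.758 through 3.04 to 9.24 CPM in separated animals. Control C1-4 at 1.07 CPM was lower than 9 of the 10 separated animals, and separated C2-12 at 9.24 CPM was above 6 of the 9 controls. The log2 change was -1.04 ± 0.376 (SE). Wfdc2, a secreted protease inhibitor of epithelia, had 5.3 ± 2.56 CPM (SD, n = 9) in controls and 2.75 ± 2.67 CPM (SD, n = 10) in separated animals. Kl, the anti-ageing coreceptor Klotho that is also made by some neurons, had 129 ± 58.02 and 84.01 ± 46.1 CPM. Msx1, a homeobox factor of the dorsal midline, had 30.02 ± 9.54 and 21.1 ± 9.74 CPM. The next 3 members were chosen after their values were seen because they define the tissue: Kcnj13, the potassium channel Kir7.1, differed by -0.97 ± 0.437 (SE), Folr1, the folate receptor of the blood-fluid barrier, by -1.02 ± 0.412, and Aqp1, the water channel of the apical membrane, by -1.05 ± 0.425. Slc29a4, a monoamine transporter that neurons also express, had the smallest change at -0.09 ± 0.0667.

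The summed level of the 15 markers ran from 223 through 660 to 1020 CPM in the 9 controls and from 224 through 366 to 911 CPM in the 10 separated animals. Both groups thus reached equally low and nearly equally high sums, and what differed was where most animals lay. A score, the mean log2 CPM of the list, was 4.7 ± 0.983 (SD, n = 9) in controls and 3.86 ± 0.993 (SD, n = 10) in separated animals. The lowest scores were 2.36 in separated C2-92, 2.43 in control C1-4 and 2.55 in separated C2-74. The highest was 5.71 in control C2-10, followed by 5.54 in separated C2-12. Leaving out single libraries moved the list median from -1.23 (without separated C2-12, 14 of 15 at an unadjusted p under 0.05) to -0.77 (without control C2-10, 6 of 15). Over all genes, 460 of 7032 and 211 of 7032 reached that threshold in these 2 fits. Cohort 1 alone gave a median of -0.754 with 0 of 15 at an unadjusted p under 0.05, and cohort 2 alone gave -1.04 with 13 of 15. Over all genes, 128 of 7117 in cohort 1 and 365 of 7070 in cohort 2 did so.

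In wildtype animals at P22 the choroid plexus markers did not share this direction. Their median log2 change was 0.244, with 12 of 15 positive (51.9% of all genes were) and 0 of 15 at an unadjusted p under 0.05. The wildtype controls had the lower sums there, with a median of 382 CPM against 473 CPM in separated animals. The change in the knockout minus that in wildtype was negative for all 15 (median -1.23), against 49.3% of all genes. Of the 15, 9 had an unadjusted p under 0.05 for this difference, where 8.47% of all genes did. None of these differences was called (edgeR, adjusted p of at least 0.584). Knockout controls had the highest median sum of the 4 groups at P22, at 660 CPM. That of knockout separated animals was the lowest, but its 366 CPM was close to the 382 CPM of wildtype controls.

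**Figure D3:**
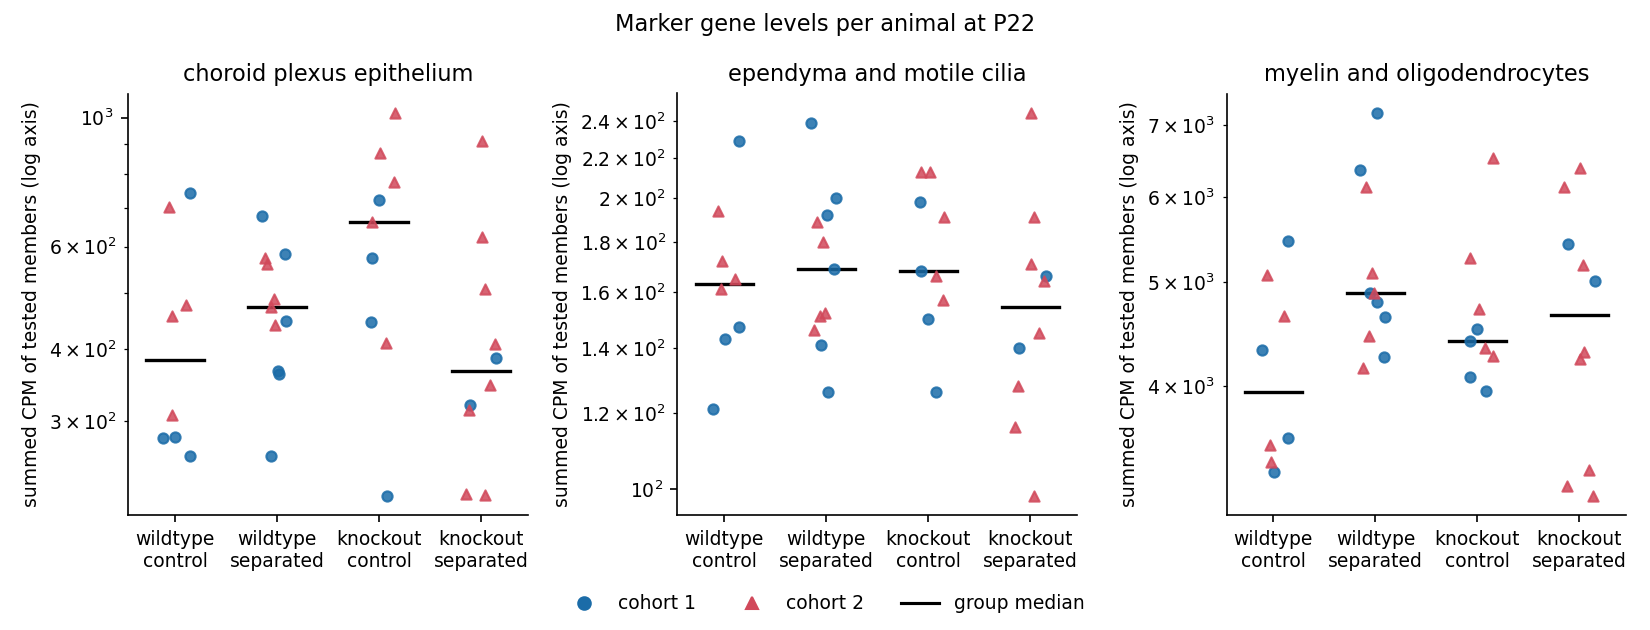
Summed CPM of the tested markers of choroid plexus, ependyma and myelin in each animal of the 4 groups at P22 (log axis, point shape and colour by cohort, bar at the group median). Choroid plexus sums of knockout animals run from 223 to 1020 in controls and from 224 to 911 in separated animals, with medians of 660 and 366.

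Ependymal genes were on the same side. Of 16 tested members 15 had negative changes (45.3% of all genes did) and 4 an unadjusted p under 0.05 (2.66% of all genes did with a negative change), with a median of -0.365. Promoters from RefSeq (GRCm38.p6) were at hand for both lists, and 2 of each are shown because these lists hold the most negative medians. The genes shown were listed by hand, not picked by the rule for named genes. They are the 250 bases before the start of Kcnj13 (chr1:87394730-87394979, minus strand) and Steap1 (chr5:5749318-5749567, minus strand) of the choroid plexus, and of Mlf1 (chr3:67373847-67374096, plus strand) and Enkur (chr2:21205366-21205615, minus strand) of the ependyma. Each reads 5′ to 3′ towards the gene, and capitals mark the motifs GTTGCC or GGCAAC and TAATCC or GGATTA. The sequences shown are examples and give no rate: Steap1, Mlf1 and Enkur hold GTTGCC or GGCAAC, and most promoters of both lists do not.
Kcnj13: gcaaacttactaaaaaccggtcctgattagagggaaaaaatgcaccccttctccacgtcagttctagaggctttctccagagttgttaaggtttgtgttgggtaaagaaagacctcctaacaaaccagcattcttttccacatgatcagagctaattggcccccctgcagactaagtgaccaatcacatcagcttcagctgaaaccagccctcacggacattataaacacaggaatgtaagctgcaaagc
Steap1: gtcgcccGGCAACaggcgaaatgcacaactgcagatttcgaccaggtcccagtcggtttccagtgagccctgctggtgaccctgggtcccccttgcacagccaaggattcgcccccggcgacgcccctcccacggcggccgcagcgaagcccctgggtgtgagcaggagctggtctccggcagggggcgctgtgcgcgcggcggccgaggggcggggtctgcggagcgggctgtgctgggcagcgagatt
Mlf1: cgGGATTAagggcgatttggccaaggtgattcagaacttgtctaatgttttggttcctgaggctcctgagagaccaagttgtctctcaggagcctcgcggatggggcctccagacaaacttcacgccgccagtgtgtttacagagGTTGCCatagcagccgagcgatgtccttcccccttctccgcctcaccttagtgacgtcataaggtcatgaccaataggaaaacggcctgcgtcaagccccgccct
Enkur: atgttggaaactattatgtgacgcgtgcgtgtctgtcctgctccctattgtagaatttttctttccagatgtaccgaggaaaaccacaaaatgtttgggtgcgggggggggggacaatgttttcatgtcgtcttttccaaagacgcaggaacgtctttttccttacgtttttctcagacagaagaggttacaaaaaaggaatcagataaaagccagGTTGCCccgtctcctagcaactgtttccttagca
GTTGCC holds letters read by RFX factors, which switch on genes of cilia, and TAATCC is the core read by OTX factors, which are needed in choroid plexus. Either strand was searched, and the 2 motifs do not overlap in letters. GTTGCC stood in 6 of 21 ependymal promoters (28.6%), in 2 of 14 choroid plexus promoters (14.3%) and in 10.4% of all 32851 promoters of this length. TAATCC stood in 2 of 21 (9.52%), 1 of 14 (7.14%) and 6.25% in the same order. Several promoters can belong to 1 gene: the 21 stand for 15 genes and the 14 for 13. A match is a description of letters and names no bound site.

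Mia, a secreted protein with an SH3-like fold, ran from 4.53 through 8.71 to 11.6 CPM in controls and from 2.01 through 5.24 to 12.5 CPM in separated animals. Of the separated animals 9 lay below the control median, while C2-12 lay above every control. In log2 Mia differed by -0.66 ± 0.238 (SE). Cfap126, a protein of the ciliary axoneme, had 7.0 ± 1.86 CPM (SD, n = 9) and 4.75 ± 2.13 CPM (SD, n = 10), with 6 separated animals below the lowest control. Tctex1d4, a dynein light chain of the Tctex family, had 2.48 ± 0.61 and 1.56 ± 0.937 CPM. Rarres2, the precursor of the chemoattractant chemerin, had 18.8 ± 2.41 and 14.6 ± 3.86 CPM. Mlf1 differed by -0.43 and Enkur, a protein of sperm and motile cilia, by -0.17. Ccdc39, which assembles the inner dynein arms of cilia, was the single member with a positive change, at 0.09 ± 0.114.

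Single animals moved the ependymal list. Without separated C2-12 its median was -0.531 and 11 of 16 members had an unadjusted p under 0.05, and cohort 1 alone gave -0.107 with 0 of 16. Over all genes, 460 of 7032 and 128 of 7117 reached that threshold in these 2 fits. In wildtype animals the median was 0.183 with 14 of 16 positive, and the difference between genotypes was negative in 15 of 16 (median -0.517; 5 of 16 at an unadjusted p under 0.05, against 8.47% of all genes, and 0 called by edgeR). Summed levels of the 16 members ran from 126 to 213 CPM in knockout controls and from 98.4 to 245 CPM in separated knockouts.

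Genes of the meninges, the membranes around the brain, were split. Of 12 tested members 7 were negative and the median was -0.00857. The 3 named ones are also made by choroid plexus or its stroma: Igfbp2 had 126 ± 43.1 CPM (SD, n = 9) in controls and 87.2 ± 41.7 CPM (SD, n = 10) in separated animals, the growth factor Igf2 275 ± 85.1 and 208 ± 61.03, and the sulphate transporter Slc13a4 32.6 ± 13.6 and 23.9 ± 9.76. Slc13a4 is also counted among the choroid plexus markers. Summed meningeal markers ran from 410 to 953 CPM in controls and from 553 to 855 CPM in separated animals. Among 27 tested imprinted genes, of which 15 were positive, Cdkn1c, a brake of the cell cycle, had 18.4 ± 4.75 and 13.1 ± 4.26 CPM and a log2 change of -0.52 ± 0.186 (SE). The other named imprinted genes had opposite signs, with Nap1l5 at 0.19 and Usp29 at 0.18.

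With the choroid plexus score as a covariate in the model, the 10 named genes of lower level kept negative values but moved unequally. Steap4 moved from -1.25 to -0.50, Angptl2 from -0.63 to -0.23, Prdm16 from -0.24 to -0.10, Ucp2 from -0.37 to -0.19, Tuft1 from -0.35 to -0.19 and Fzd4 from -0.33 to -0.21. Inpp5d moved from -0.20 to -0.18 and Dkkl1 from -0.89 to -0.84. Of the genes of higher level Epb41 was at 0.29 without and 0.28 with the score and Mab21l1 moved from 1.21 to 1.06. Igf2 moved from -0.44 to -0.06 and Igfbp2 from -0.58 to -0.09. The median of the ependymal list became 0.0772, with 10 of 16 positive. The part of choroid plexus RNA in these changes was not tested beyond these values. With the score in the model 329 genes had an unadjusted p under 0.05 and 0 were called (edgeR).

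**Figure D4:**
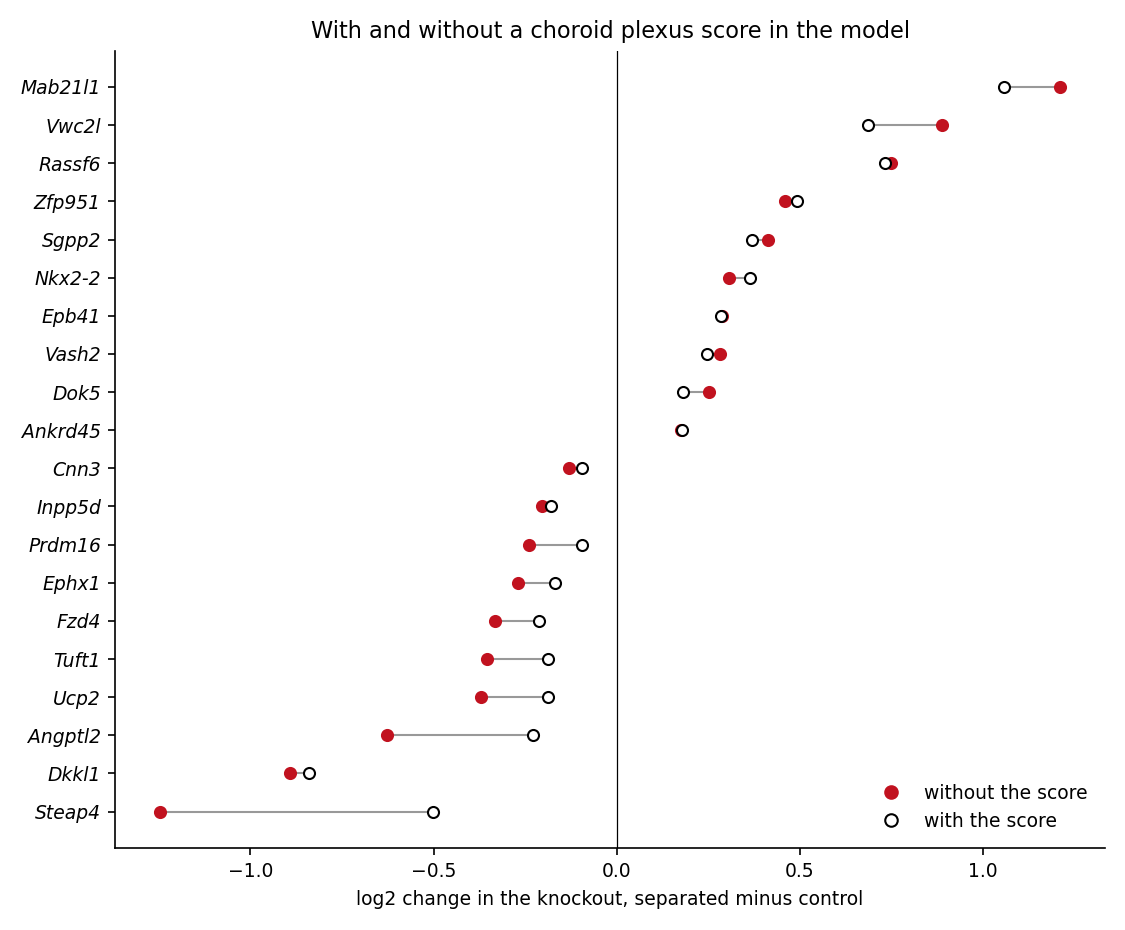
Log2 change in the knockout at P22 of the 20 genes with the smallest p, without (red) and with (open) the choroid plexus score in the model, joined by a line. Steap4 goes from -1.25 to -0.50 and Angptl2 from -0.63 to -0.23, while Inpp5d and Dkkl1 hardly move.

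Markers of the thalamus and habenula, which lie below the hippocampus, were all positive. They were 10 of 10, where 54.7% of all genes were positive, with a median of 0.223. Slc17a6 and Trh, both described below, were the 2 at an unadjusted p under 0.05. Among all genes 2.09% had such a p with a positive change. Without separated C2-92 the median was 0.138. Slc17a6, the vesicular glutamate transporter of thalamic neurons, ran from 22.2 through 38.3 to 87.6 CPM in controls and from 26.2 through 71.0 to 112 CPM in separated animals. The groups overlapped over most of their range, and 9 of 10 separated animals lay above the control median. The log2 change was 0.52 ± 0.212 (SE; edgeR, adjusted p = 0.978). Synpo2, an actin-binding protein, was at 0.30 and Lef1, a transcription factor of Wnt signalling, at 0.22. Summed over the 10 members, controls had 282 to 516 CPM (median 314) and separated animals 295 to 525 CPM (median 396). In wildtype animals 6 of 10 were positive (median 0.0447). Whether the dissection differed between the groups was not tested.

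Trh, the thyrotropin-releasing hormone that is also a list member, ran from 0.933 through 2.38 to 3.02 CPM in controls and from 1.43 through 2.57 to 14.9 CPM in separated animals. The medians were close, and the change of 1.06 ± 0.493 (SE) came from a few separated animals, with C2-36 at 14.9, C2-77 at 9.68 and C2-12 at 5.75 CPM. Without C2-36 it was 0.70.

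Within the hippocampus, genes of dentate granule cells were positive in 8 of 9 members (54.7% of all genes were; median 0.132), and 2 had an unadjusted p under 0.05 (2.09% of all genes did with a positive change). Their median ran from 0.083 without separated C2-63 to 0.20 without control C2-96. Dock10, a guanine nucleotide exchange factor, had 264 ± 39.5 CPM (SD, n = 9) in controls and 302 ± 36.1 CPM (SD, n = 10) in separated animals, and Lrrtm4, a synaptic organiser of granule cell dendrites, had 119 ± 15.6 and 140 ± 24.7 CPM. Genes of the pyramidal fields CA1 to CA3 were positive in 2 of 8, with a median of -0.05 and a range from -0.22 (Fibcd1) to 0.33 (Wfs1). Wfs1, an endoplasmic reticulum protein that marks CA1, ran from 259 through 332 to 345 CPM in controls and from 262 through 384 to 540 CPM in separated animals. The separated values lay in clusters, with 5 animals at 457 to 540 CPM, above every control, and 5 at 262 to 311 CPM, within the control range. Its log2 change was 0.33 ± 0.145 (SE). Interneuron genes were negative in 15 of 23 (median -0.03), with the neuropeptide Npy at -0.18 and the fate factor Dlx2 at -0.17. Npy was at -0.08 without control C2-43, whose 127 CPM lay far above the next control at 95.5 CPM.

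Potassium and sodium channels were positive in 22 of 27 members (54.7% of all genes were), with a median of 0.0821. Of the 27, 4 had an unadjusted p under 0.05 (14.8%, against 2.09% of all genes with a positive change). Kcna4, a subunit of fast-inactivating channels, ran from 47.8 through 53.1 to 62.4 CPM in controls and from 51.6 through 67.2 to 74.5 CPM in separated animals, and 7 separated animals lay above the highest control. Its log2 change was 0.26 ± 0.0843 (SE). Kcnc4 was at 0.21 ± 0.0749, Kcna2, a channel of axons, at 0.17 ± 0.0691, and Kcnj3, a subunit of the G-protein gated channel GIRK, at 0.14 ± 0.0658. None of the 4 was called (edgeR, adjusted p = 0.978 for each). In wildtype animals 23 of 27 members were negative (48.1% of all genes were), with a median of -0.0765. The difference between genotypes was positive in 24 of 27 (50.7% of all genes). For this difference 10 members had an unadjusted p under 0.05 (8.47% of all genes did) and 0 were called. Cohort 1 alone gave a knockout median of -0.02 for this list.

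Receptor genes had small changes in the knockout. Over all tested genes 54.7% of the changes were positive. GABA receptor subunits were positive in 9 of 10 (median 0.0713; Gabrb1 0.14, Gabra4 0.11) and glutamate receptor genes in 8 of 12 (median 0.0363; Grm8 0.20, Grm7 0.08), with 0 members at an unadjusted p under 0.05 in either list. Without control C2-43 the GABA receptor median was 0.027 and Gabra4 was at 0.06. Axon guidance genes were positive in 18 of 27 (median 0.0627, and 0.0201 without control C2-43), with the semaphorin Sema4c at 0.12 and the midline repellent Slit2 at -0.14. Cadherins, protocadherins and catenins, the relatives and partners of T-cadherin, were positive in 8 of 14 (median 0.0504). Cdh20 had 50.8 ± 6.83 CPM (SD, n = 9) in controls and 60.7 ± 10.1 CPM (SD, n = 10) in separated animals, a log2 change of 0.24 ± 0.0886 (SE), and Cdh7 was at 0.30 ± 0.15. Adiponectin receptors and the AMPK pathway, downstream of a T-cadherin ligand, were negative in 5 of 7 (median -0.0366; Adipor2 -0.09, Ppargc1a 0.09). In wildtype animals 7 of 10 GABA receptor and 9 of 12 glutamate receptor genes were negative (medians -0.0473 and -0.0999), where 48.1% of all genes were. So were 16 of 27 axon guidance genes, 12 of 14 cadherins and partners, and 5 of 7 of the adiponectin list. Differences between genotypes were positive in 8, 10, 17, 11 and 3 members in the same order (50.7% of all genes), with 0 called.

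Postsynaptic scaffold genes were positive in 8 of 15, with the adhesion proteins Lrrtm4, given above, and Lrrc4c at 0.13. Monoamine and acetylcholine receptors were positive in 6 of 14, with the adrenergic receptor Adra1d at -0.18 and the muscarinic receptor Chrm2 at 0.21. Neuropeptides and opioid receptors were split, 7 of 14, with a median of 0.0156 that was 0.138 in cohort 1 alone. Neurotrophins and growth factor receptors were positive in 8 of 14, with Igf2 and Igfbp2, given above, as the 2 members at an unadjusted p under 0.05.

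**Figure D5:**
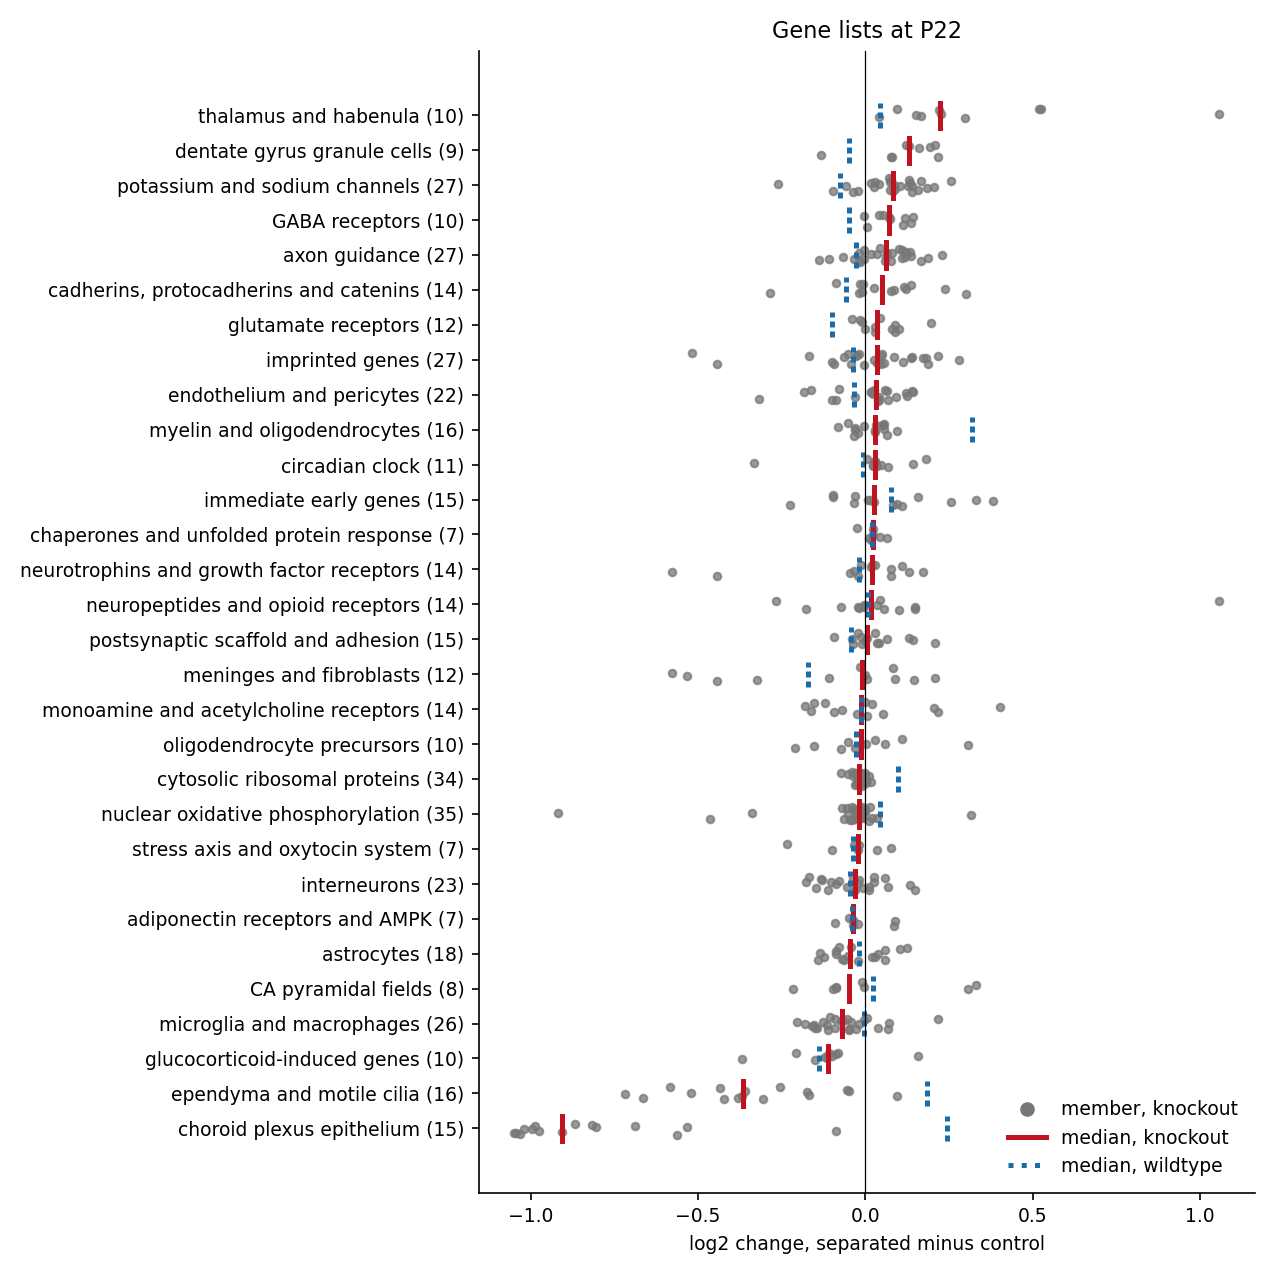
Log2 change of every tested member (grey) of the 30 gene lists in the knockout at P22, with the list median in knockout (red bar) and wildtype (dotted blue bar); member numbers stand in brackets. Choroid plexus (median -0.906) and ependyma (-0.365) stand at the low end, and thalamus and habenula (0.223) at the high end.

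Myelin genes showed no shift in the knockout, with 9 of 16 positive, a median of 0.0293 and 0 members at an unadjusted p under 0.05. Carbonic anhydrase Car2 was at -0.05 and the gap junction protein Gjc3 at 0.10. In wildtype animals all 16 were positive (51.9% of all genes were; median 0.318), and 10 had an unadjusted p under 0.05 (6.58% of all genes did). The difference between genotypes was negative in 16 of 16 (49.3% of all genes were), with a median of -0.274. For this difference 2 members had an unadjusted p under 0.05 (8.47% of all genes did) and 0 were called. Summed myelin levels of the knockouts spanned 3960 to 6520 CPM in controls and 3160 to 6390 CPM in separated animals. Oligodendrocyte precursor genes were split, 5 of 10, with the matrix protein Matn4 at -0.15 and the factor Nkx2-2 at 0.31.

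Microglial and macrophage genes were negative in 21 of 26 (45.3% of all genes were; median -0.0709), and 3 had an unadjusted p under 0.05 (2.66% of all genes did with a negative change): Inpp5d, described above, the antibody receptor Fcgr3 with 26.2 ± 2.74 CPM (SD, n = 9) in controls and 23.1 ± 2.25 CPM (SD, n = 10) in separated animals, and Tmem119, a surface marker of resident microglia, with 48.2 ± 6.74 and 43.7 ± 5.79 CPM. Their summed level ran from 1010 to 1240 CPM in controls and from 961 to 1130 CPM in separated animals. In wildtype animals 14 of 26 were negative, and cohort 1 alone gave a knockout median of 0.04. Astrocyte genes were negative in 11 of 18 (median -0.0465; the adhesion molecule Vcam1 -0.14, tissue factor F3 -0.12). Endothelial and pericyte genes were positive in 15 of 22 (median 0.032, range -0.32 to 0.14). The 2 with the smallest p were of the minority with a negative sign: the caveolar adaptor Nostrin at -0.32 ± 0.129 (SE) and the glucose transporter Slc2a1 at -0.18 ± 0.0927. Vwf, the von Willebrand factor, had the highest value at 0.14. Cohort 1 alone gave a knockout median of 0.145 for the endothelial and pericyte list.

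Genes that respond to stress hormones and activity gave small values. Genes induced by glucocorticoids were negative in 9 of 10, where 45.3% of all genes were (median -0.111, 0 at an unadjusted p under 0.05). Hif3a was at -0.37 ± 0.228 (SE), the receptor brake Errfi1 at -0.11 and Klf15 at -0.11. In wildtype animals all 10 were negative, where 48.1% of all genes were (median -0.139). The differences between genotypes were 5 positive and 5 negative. Immediate early genes, which neurons switch on with activity, were positive in 10 of 15 (median 0.0245). Btg2 ran from 37.8 through 43.5 to 61.1 CPM in controls and from 39.8 through 56.9 to 88.3 CPM in separated animals, and 9 of 10 separated animals lay above the control median. Its log2 change was 0.38 ± 0.125 (SE), that of the nuclear receptor Nr4a2 0.33 ± 0.142, and that of the synaptic pentraxin Nptx2 -0.23 ± 0.104. Without control C2-43 Nptx2 was at -0.09. Cohort 1 alone put Btg2 at -0.05. Genes of the stress axis and oxytocin system were negative in 5 of 7, with the urocortin receptor Crhr2 at -0.23 and the PACAP receptor Adcyap1r1 at 0.08.

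Clock genes were positive in 10 of 11 (54.7% of all genes were), with a median of only 0.0289. Bhlhe41, a repressor of the clock loop, was at 0.14 ± 0.0639 (SE). Chaperones of the cytosol and endoplasmic reticulum were positive in 6 of 7 (median 0.0216; Hspa5 0.06, Hsph1 -0.03). Cytosolic ribosomal protein genes were negative in 29 of 34 (45.3% of all genes were), with a median of -0.02 (Rpl28 -0.07, Rplp0 -0.05). Nuclear genes of oxidative phosphorylation were negative in 29 of 35, with a median of -0.02. In wildtype animals these 2 lists were positive in 34 of 34 (median 0.0988) and 33 of 35 (median 0.0448), where 51.9% of all genes were. The knockout medians are within 0.02 of 0, close to the 0.00726 of all genes, and the differences between genotypes had medians of -0.116 and -0.0752 with 0 called. In the oxidative phosphorylation list the scarce isoforms Cox8b and Cox6b2 were the 2 members of lower level at an unadjusted p under 0.05. Cox8b had 1.37 ± 0.787 CPM (SD, n = 9) in controls and 0.767 ± 0.512 CPM (SD, n = 10) in separated animals. Cox6b2 had 4.62 ± 1.34 and 3.8 ± 0.798 CPM. At the same threshold 1 member of this list had a positive change.

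Whether separation acted differently in knockout and wildtype animals at P22 was tested by the interaction in the same fit. By edgeR 0 of 7036 genes passed (smallest adjusted p = 0.295), and 596 (8.47%) had an unadjusted p under 0.05, against 352 expected with no effect. DESeq2 and limma-voom also called 0, with 599 and 617 at an unadjusted p under 0.05. Separation in wildtype animals alone gave 463 such genes (6.58%) and 0 called by any of the 3 tools. The gene with the smallest p was Naaa, a lysosomal enzyme that cleaves lipid amides. In the knockout it had 79.5 ± 5.11 CPM (SD, n = 9) in controls and 74.1 ± 4.13 CPM (SD, n = 10) in separated animals. In wildtype animals it had 72.4 ± 4.19 CPM (SD, n = 8) and 79.7 ± 4.3 CPM (SD, n = 11). The 2 changes were -0.11 and 0.14 in log2, and their difference was -0.25 ± 0.0576 (SE).

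Usp13, a ubiquitin protease, showed the opposite order, with 65.3 ± 5.21 and 73.0 ± 6.14 CPM in knockout controls and separated animals and 72.5 ± 3.67 and 64 ± 6.31 CPM in wildtype ones. The difference of its changes was 0.31 ± 0.0735 (SE). Bdh2, a short-chain dehydrogenase, had 4.15 ± 0.755 and 3.42 ± 0.816 CPM in the knockout and 2.91 ± 0.495 and 4.25 ± 0.915 CPM in wildtype animals, a difference of -0.84 ± 0.196. Naaa, Usp13 and Bdh2 each had an adjusted p = 0.295 by edgeR. Trh had a difference of 2.57 ± 0.673 (SE; edgeR, adjusted p = 0.584). For Trh 1 wildtype group was as uneven as the knockout, with 6.31 ± 8.09 CPM (SD, n = 8) in controls. In these 4 genes the knockout controls differed from the wildtype controls in the direction of the separated wildtype animals, an arrangement that choosing genes by this test favours.

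Other animals of the same genotype and rearing were measured as adults at P66, 7 separated and 7 controls. By edgeR 0 of 7001 genes passed there, the smallest adjusted p was 0.0541, and 783 (11.2%) had an unadjusted p under 0.05; DESeq2 called 27. The change at P66 minus that at P22, tested over all 69 libraries, passed in 0 of 7131 genes by edgeR with 793 (11.1%) at an unadjusted p under 0.05, and in 2 by DESeq2. Choroid plexus markers had a median of -0.0636 at P66, with 12 of 15 negative (53.6% of all genes were), and ependymal ones 0.119, with 13 of 16 positive. Of the genes named above, Hsph1 was at -0.03 at P22 and 0.24 ± 0.0534 (SE) at P66, and all 7 chaperones were positive at P66 (median 0.242). Myelin genes were positive in 16 of 16 at P66 (median 0.242), where 46.4% of all genes were. Fzd4 was at -0.19 and Epb41 at -0.24 at P66. Dkkl1 was at 0.60, against -0.89 at P22, and Bdh2 at 0.64, against -0.29.

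The remaining limits concern the cohorts and single animals. Cohort 1 holds only 2 separated knockouts at P22, so cohort 1 alone rests on 2 against 4 animals, and 14 of the 89 named genes had the opposite sign there. Leaving out a single library turned the sign of the median of the lists for CA fields (0.0017 without separated C2-36), meninges (0.0502 without control C2-43), myelin (-0.03 without separated C2-9), endothelium (-0.0093 without separated C1-61), immediate early genes (-0.01 without control C2-10), imprinted genes (-0.02 without control C1-55) and ribosomal proteins (0.0117 without control C2-43). The medians for chaperones, oxidative phosphorylation, oligodendrocyte precursors, neuropeptides and postsynaptic scaffolds turned too, each to a value within 0.02 of 0, and the medians of the smaller shifts in receptor, clock, astrocyte, interneuron and cadherin genes moved by more than 1.5 times. Leaving out the 3 libraries whose choroid plexus score lay more than 1.5 in log2 from the median (control C1-4, separated C2-74 and C2-92), an alternative chosen after seeing the data, left 0 genes called by edgeR and 241 at an unadjusted p under 0.05. The choroid plexus median was -0.778 without them, with 12 of 15 members at an unadjusted p under 0.05 (241 of 7029 over all genes). The libraries left out were chosen by the levels of these same 15 genes, so these 2 values are no separate check. The ependymal median was -0.217, and that of thalamus and habenula 0.131. Myelin genes were then negative in 16 of 16 (median -0.087).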

How the data were processed

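One hippocampal library per animal was sequenced from 69 male mice, of which 19 are the subject here. The authors deposited raw, unnormalized counts of reads for each gene in a single table. FastQC 0.11.4, cutadapt 1.16, edgeR and limma 3.34.9 appear in the submitters' processing notes. Aligner, counting tool and build: not given in the sources used here. Of the 9930 complete records 99.55% had their identifier in GENCODE M21, and 96.5% of those had its position there, so GRCm38 is used; 1 broken record was left out. Totals cover only this part of the genome and ran from 11.81 to 14.8 M in the 19 libraries. None of 81 pairs of libraries within groups agreed within counting error (chi-square per degree of freedom 6.333 to 53.32).

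Tests ran in R 4.3.3 with edgeR 4.0.16: filterByExpr (minimum count 10, total 15), TMM, and a quasi-likelihood fit of the 38 P22 libraries with terms for group and cohort; P66, and all 69 libraries for age, were fitted likewise. A gene was called at an adjusted p under 0.05 (Benjamini-Hochberg over all tested genes). CPM use TMM-scaled library sizes, and scores are means of log2 CPM (prior count 2). The SE of a log2 change is its size divided by the square root of the F statistic of its edgeR test. The 89 named genes are the 10 higher and 10 lower with the smallest p and a mean log2 CPM of at least 0, up to 4 members with the smallest p of each list described, and the 5 with the smallest p of the interaction; a few of them are not reported here. Members and lists were chosen with earlier results of these data known. Alternatives were DESeq2 1.42.0, limma-voom (limma 3.58.1), RLE, no filter, a filter of 1 CPM in at least 8 libraries, leaving out the cohort term, each cohort, the 19 libraries alone, all 69, an adjusted p under 0.1, a choroid plexus covariate and leaving out each library. The fits were tested on simulated data with known changes.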

Additional observations from a re-analysis of the deposited data

Results flagged for a closer look

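Each named gene reported here was checked in both knockout groups at P22 for an animal far from the rest of its group, and 11 of 174 such checks found one; chance alone gives about 1 in 20. Separated C2-12 was the highest of its group in 5 of them: Wfdc2 at 9.72 CPM (next 3.64), Mia at 12.5 (next 6.73), Igfbp2 at 195 (next 106), Ephx1 at 78.6 (next 67.5) and Cox6b2 at 5.75 (next 4.4). The same animal had the highest choroid plexus score of the separated group, 5.54. Control C2-43 was the highest for Dkkl1 at 12.1 CPM (next 5.55) and Npy at 127 (next 95.5). Control C1-4 was the lowest for Epb41 at 62.7 CPM (next 85.3) and the highest for Adra1d at 165 (next 118), and it had the lowest choroid plexus score of the controls, 2.43. Control C1-51 was the highest for Synpo2 at 30.2 CPM (next 19.5), and control C2-77 the lowest for Hsph1 at 651 (next 699).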

How the results depend on the processing

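For separation in the knockout at P22, 0 genes were called under DESeq2, limma-voom, RLE, no filter, the stricter filter, no cohort term, either cohort alone, the 19 libraries alone, all 69 libraries, an adjusted p under 0.1, the choroid plexus covariate and without the 3 libraries far in choroid plexus score. Leaving out single libraries gave 0 to 1 calls, the 1 being Fzd4 (-0.3964, edgeR, adjusted p = 0.039) without control C2-43. That control had the lowest Fzd4 level of its group, 34 CPM, and the p is not adjusted for the 19 fits. Further causes were not tested. The number of genes at an unadjusted p under 0.05, 334 with all libraries, was 128 in cohort 1 alone, where fewer animals enter, and 211 (without control C2-10) to 476 (without control C2-96) when single libraries were left out. For the interaction these fits gave 0 calls and 423 (without separated C2-36) to 860 (without separated C2-23). DESeq2 called 27 genes at P66 and 2 for P66 minus P22, where edgeR called 0; the cause was not tested. RLE moved the share of positive changes from 54.7% to 50%.

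Of the 89 named genes none changed sign under the other tools, scalings and filters, without the cohort term, or when a single library was left out. In cohort 1 alone 14 did: Ucp2 0.0483, Gabrb1 -0.0031, Grm8 -0.0383, Grm7 -0.0162, Car2 0.0653, Slc2a1 0.0447, Btg2 -0.0495, Nptx2 0.1013, Klf15 0.0232, Hspa5 -0.0022, Ppargc1a -0.0155, Rpl28 0.0382, Rplp0 0.0047 and Cox6b2 0.0151. Gjc3 was at -0.0082 in cohort 2 alone and -0.0166 without the 3 far libraries. With the choroid plexus covariate Slc13a4 was at 0.108, Car2 at 0.0197 and Crhr2 at 0.1973. Slc13a4 is itself a member of the choroid plexus list and enters that score, so its value there is partly set by the model. The cause of the other sign changes was not tested.

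No paired analysis was possible because animal numbers run within cohort and rearing group, so that the single number both groups share, C2-77, names different animals. Depth was within 11.81 to 14.8 M counts and differed little between the groups (13.7 ± 0.683 M, SD, n = 9, in controls and 13.6 ± 0.96 M, SD, n = 10, in separated animals).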
